A study of Homo sapiens with 12 samples.

Results

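MTF1 and 9 zinc transporter genes were followed in the hepatocellular carcinoma cell line Huh7, an established human line, after treatment with disulfiram, thalidomide or both. The 10 genes are MTF1, the importer genes SLC39A1, SLC39A4, SLC39A6, SLC39A7, SLC39A10 and SLC39A14, and the exporter genes SLC30A5, SLC30A6 and SLC30A7. They were chosen by name, through the Ensembl gene identifiers of the deposited table and the symbols of GENCODE 29. They make up 10 of the 59191 features listed, and all 10 were among the 15352 genes tested. RNA was sequenced from 12 libraries in 4 groups of 3, which were a DMSO control, disulfiram alone, thalidomide alone, and disulfiram with thalidomide (the combination). Disulfiram is an aldehyde dehydrogenase inhibitor whose metabolites bind copper and zinc, and thalidomide binds cereblon, a substrate receptor of a ubiquitin ligase. Each drug and the combination were compared with control, the combination with each drug, and the drugs with each other. All groups are labelled as the same cell line, so each result is about this line only. The labels also carry an extraction protocol for dissociated patient tissue and a single-cell library type, which conflict with the cell line and with a table of 1 column per library, and the values were read as bulk RNA of Huh7. For dose units and treatment times, the sources used here give nothing. No label names separate cultures behind the replicates, and the p-values then cover the spread among these libraries and nothing wider.

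Zinc enters the cytosol through proteins of the SLC39 (ZIP) family and leaves it through those of the SLC30 (ZnT) family, either out of the cell or into organelles. MTF1 is a zinc-finger transcription factor that senses free zinc in the cell, binds metal response elements in DNA and switches on the metallothioneins, small cysteine-rich metal-binding proteins, and SLC30A1, the zinc exporter of the plasma membrane. In the liver this circuit buffers zinc, and SLC39A14 is the importer that hepatocytes raise in inflammation.

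MTF1 binds DNA at a short word, the metal response element. The 250 bases before each start site were therefore searched on both strands for its core, TGCACNC or TGCGCNC, where N is any base. Sequences are those of RefSeq on GRCh38.p14, and windows of 8 of the 10 genes were searched, 10 windows in all. No window of SLC39A4 or SLC39A14 was searched, so whether these genes hold a match is unknown. Among 35116 windows of this length, 24.83% held at least 1 match, 6.481% at least 2 and 1.58% at least 3. A match describes letters and is neither a bound site nor a cause, and a window with none lacks only these letters. Of the 10 windows, 3 held 1 match each, at SLC39A1, SLC39A6 and SLC30A6. None was found in the windows of MTF1, SLC39A7, SLC39A10, SLC30A5 or SLC30A7. All 10 windows overlap annotated exons, from 28 bases (MTF1) to all 250 (SLC30A5 and SLC39A7). The 3 matches are printed here with 10 bases on either side, 5′ to 3′ on the gene's strand, with the matched letters in capitals. They lie at chr1:153963757-153963783 (minus strand), chr18:36129341-36129367 (minus strand) and chr2:32165726-32165752 (plus strand), and in SLC30A6 the capitals read as the core on the other strand.
SLC39A1: cctccacagaTGCGCCCcagggcccca
SLC39A6: cccgcggcgcTGCGCGCggcggtaatt
SLC30A6: ttccgccacgGAGTGCAgggacagccg

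For contrast, the stretch before the MTF1 start is printed beside those of SLC30A1 and the metallothionein genes MT1B and MT1X, which are textbook MTF1 targets. Of 11 metallothionein genes 5 matched an entry, and all 5 windows held at least 3 matches, namely MT1B with 3, MT4 with 3, MT1X with 4, MT2A with 7 and MT1H with 8, and SLC30A1 held 1. The MT2A window also lay in exons over all 250 bases, and those of MT1B, MT1H and SLC30A1 over none. The stretches, without annotated exon bases, lie at chr1:37859621-37859842 (minus strand) for MTF1, chr1:211579162-211579411 (minus strand) for SLC30A1, chr16:56651636-56651885 (plus strand) for MT1B and chr16:56682220-56682423 (plus strand) for MT1X. Capitals again mark the matches.
MTF1: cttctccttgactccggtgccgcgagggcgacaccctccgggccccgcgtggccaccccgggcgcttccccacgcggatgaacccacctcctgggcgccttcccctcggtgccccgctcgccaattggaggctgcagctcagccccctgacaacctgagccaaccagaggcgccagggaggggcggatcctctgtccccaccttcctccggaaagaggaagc
SLC30A1: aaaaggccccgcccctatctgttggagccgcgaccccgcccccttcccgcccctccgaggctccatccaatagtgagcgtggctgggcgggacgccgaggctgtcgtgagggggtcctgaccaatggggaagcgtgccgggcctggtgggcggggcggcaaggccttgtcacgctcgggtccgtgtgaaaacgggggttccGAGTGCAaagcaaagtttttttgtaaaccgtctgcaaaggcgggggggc
MT1B: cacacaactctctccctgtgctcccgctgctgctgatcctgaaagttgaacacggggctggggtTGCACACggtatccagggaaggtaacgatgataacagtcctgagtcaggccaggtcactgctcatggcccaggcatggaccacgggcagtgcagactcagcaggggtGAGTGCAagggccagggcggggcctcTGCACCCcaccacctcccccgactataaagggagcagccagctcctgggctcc
MT1X: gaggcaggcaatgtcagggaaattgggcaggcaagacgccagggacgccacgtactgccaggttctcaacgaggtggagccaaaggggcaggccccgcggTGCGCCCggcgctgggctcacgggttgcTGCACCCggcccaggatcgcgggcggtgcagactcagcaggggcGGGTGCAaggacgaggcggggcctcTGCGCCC

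**Figure D1:**
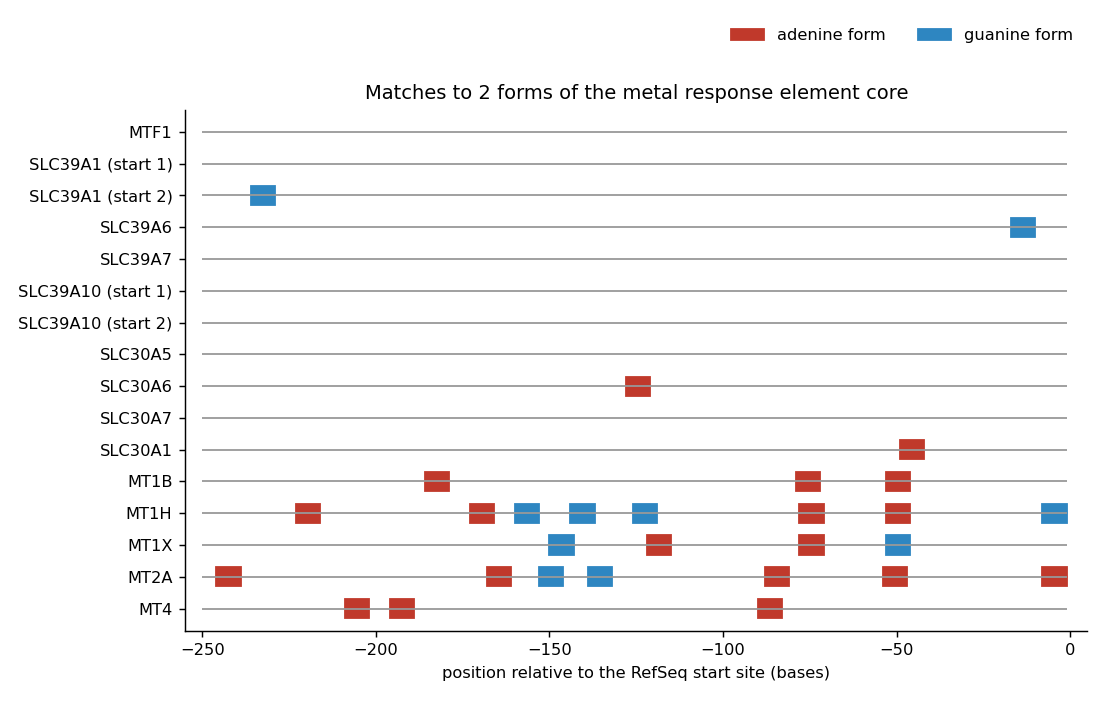
Matches to the 2 forms of the metal response element core in the 250 bases before RefSeq start sites, with the position in bases relative to the start on the x axis, 1 line per window and coloured boxes for matches on either strand. The 10 windows of MTF1 and the transporters hold 3 matches in all, while each of the 5 metallothionein windows holds at least 3.

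Values are TPM, a share of all transcripts scaled by gene length and set to a fixed total, as computed by the authors. The files give no read counts, so depth is unknown. Each library summed to the same total and held 13693 to 15038 genes at 1 TPM or more. The hepatocyte markers ALB, APOA1, APOA2, TTR, SERPINA1, AFP, FGB and TF were all at or above 1 TPM in at least 1 group mean (8 of 8), and their sums ran from 4255 to 6783 TPM in control, 4028 to 4088 in disulfiram, 5443 to 7577 in thalidomide and 3626 to 4750 in the combination. Of 5 endothelial markers, only PECAM1 reached a group mean of 1 TPM, and their sums were 0.79 to 1.55 TPM in control, 3.52 to 7.42 in disulfiram, 1.66 to 2.51 in thalidomide and 3.83 to 5.43 in the combination. CLEC4G was at 0 throughout. Of 5 immune markers 2 reached it (CD14 and LYZ), with sums of 104.5 to 174.1 TPM in control, 64.4 to 130.4 in disulfiram, 117.7 to 169.3 in thalidomide and 87.2 to 96.0 in the combination, and of 5 fibroblast and stellate markers 3, with sums between 33.9 and 59.4 TPM over all libraries. These immune sums are mostly CD14, and the 2 genes moved in opposite directions. In control, disulfiram, thalidomide and the combination, mean CD14 was 131.8, 81.9, 141.9 and 79.3 TPM. Mean LYZ was 5.34, 12.2, 5.09 and 10.8 TPM in the same order. The part of all these markers in the results below was not tested. In bulk RNA, fewer cells that express a gene and less RNA per cell cannot be told apart.

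Along the GC content of genes, the second libraries of disulfiram and of the combination differed from the other libraries of their groups. Over 15042 tested genes, the Spearman correlation between a library's deviation from its group mean and the GC content of each gene's longest transcript was 0.60 in the second disulfiram library and 0.66 in the second combination library. It lay between -0.59 and -0.30 in the other libraries of those groups, between -0.18 and 0.13 in control and between -0.39 (the third library) and 0.48 (the first) in thalidomide. Deviations from a group mean cancel within each group, so the correlations of its libraries are not independent. These are descriptions over genes of the same libraries and carry no test. Because the 10 genes differ in GC content, from 36.2% (SLC30A7) to 57.2% (SLC39A1), the results were recomputed without those libraries and after removal of each library's trend on GC content (the GC correction). That trend was taken on deviations from each gene's mean over all 12 libraries, not from its group mean. The correction therefore also removes a trend on GC content that differs between groups, whatever its origin.

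The 10 genes spanned more than 2 orders of magnitude of TPM in control cells. SLC39A7 (ZIP7, which releases zinc from the endoplasmic reticulum and Golgi) was highest at 172.9 ± 18.0 TPM (SD, n = 3). SLC39A1 (ZIP1, a plasma membrane importer) and SLC39A14 (ZIP14, an importer of zinc, iron and manganese) followed at 107.9 ± 6.27 and 98.4 ± 5.06, and their libraries overlapped. Below them came SLC30A5 at 20.04 ± 1.66 TPM, SLC39A6 at 12.2 ± 1.23 and SLC30A6 at 5.33 ± 0.215, each without overlap with the next gene. SLC30A7 at 4.33 ± 0.521 TPM and SLC39A10 at 3.67 ± 0.841 overlapped. MTF1 at 2.28 ± 0.108 TPM and SLC39A4 (ZIP4, the intestinal importer mutated in acrodermatitis enteropathica) at 1.21 ± 0.492 were lowest. The order of the 5 highest genes was the same in all 4 groups, and SLC39A4 was lowest in all 4. In the combination SLC39A10 moved from eighth to sixth place at 8.25 ± 3.10 TPM, but its libraries overlapped those of SLC30A6 at 7.74 ± 1.28.

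**Figure D2:**
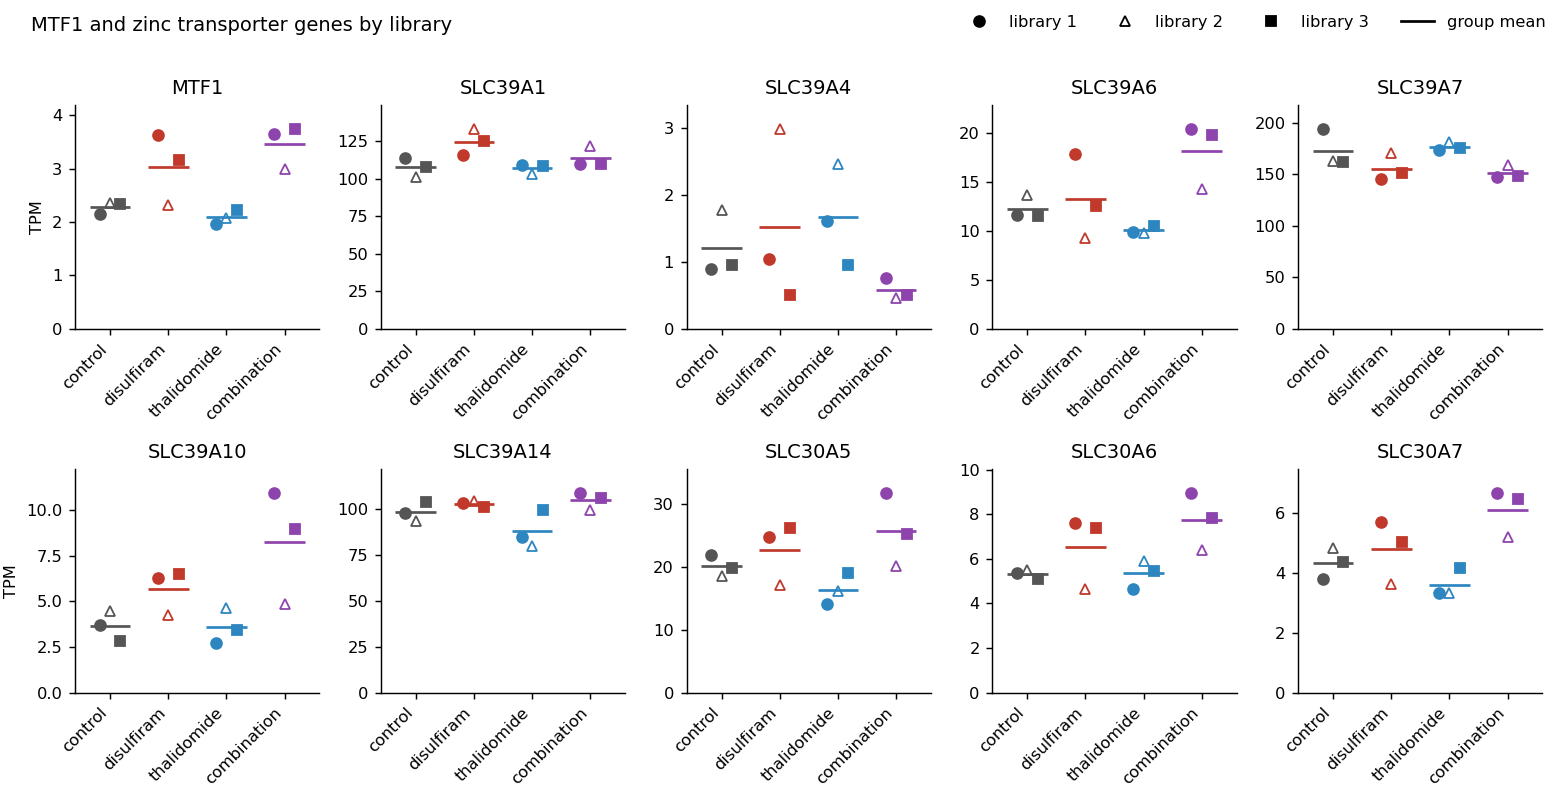
TPM of the 10 genes on the y axes (from 0, a scale of its own in each panel) in the 4 groups, with 1 marker per library and a bar at the group mean of 3. The second disulfiram and second combination libraries (open triangles) are the lowest of their groups for MTF1, SLC39A6, SLC39A10, SLC30A5, SLC30A6 and SLC30A7.

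MTF1 (ENSG00000188786, hg38 chr1:37809567-37859620, minus strand) was higher with the combination and not called with either drug alone. Its 3 control libraries stood at 2.16, 2.36 and 2.33 TPM and its thalidomide libraries at 1.97, 2.08 and 2.22. Disulfiram libraries stood at 3.64, 2.32 and 3.16 TPM and combination libraries at 3.65, 2.99 and 3.74. All 3 combination libraries lay above every control library, while the second disulfiram library lay inside the control range and the other 2 above it. On log2(TPM + 1), a scale that makes changes of low genes smaller than the ratio of their TPM, MTF1 rose by 0.44 ± 0.15 (SE) with the combination, with an adjusted p of 0.0489 from limma. That value is close to the threshold of 0.05, and only 6 of 22 alternative analyses kept it below, with adjusted p from 0.00226 to 0.443. Leaving out any control library ended the call (adjusted p 0.124, 0.0891 and 0.102), as did leaving out combination library 1 or 3 (0.142 and 0.156), any thalidomide library (0.0576 to 0.0593) or disulfiram library 3 (0.0618). A block for the replicate number also ended it (0.0598). Leaving out both second libraries gave 0.52 with an adjusted p of 0.0125, and the GC correction gave 0.23 with 0.141. With disulfiram alone MTF1 differed from control by 0.29 ± 0.15 (95% interval -0.04 to 0.61, adjusted p = 0.236), and with thalidomide by -0.09 ± 0.15 (adjusted p = 0.988). Compared directly in limma, the combination differed from disulfiram alone by 0.15 ± 0.15 (adjusted p = 0.591), so the 2 groups were not set apart for MTF1.

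The genes whose pattern over the 12 libraries was most like that of MTF1, among 9648 genes with a mean of at least 5 TPM, were ARL6IP1 (Pearson r = 0.989), DBR1 (0.983) and RRN3 (0.980). ARL6IP1 shapes endoplasmic reticulum membranes, DBR1 debranches intron lariats and RRN3 is an initiation factor of RNA polymerase I. Their mean TPM in control, disulfiram, thalidomide and the combination were 96.9, 137.7, 87.5 and 168.9 for ARL6IP1, 8.03, 11.1, 7.76 and 12.2 for DBR1, and 9.88, 13.7, 8.77 and 17.3 for RRN3. All 3 have GC contents near 41% (41.3%, 41.7% and 41.5%), against 46.7% for MTF1, and all values come from the same 12 libraries.

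Among importers of the plasma membrane, SLC39A10 (ZIP10, ENSG00000196950, hg38 chr2:195575977-195737702, plus strand) had the largest difference from control of the 10 genes. Control libraries stood at 3.72, 4.48 and 2.80 TPM and thalidomide libraries at 2.70, 4.61 and 3.44. Disulfiram libraries stood at 6.28, 4.24 and 6.48 TPM and combination libraries at 10.9, 4.86 and 8.94. All 3 combination libraries exceeded the highest control library, the second of them narrowly, and the second disulfiram library again fell among the controls. SLC39A10 rose by 0.94 ± 0.26 on the log2 scale with the combination (95% interval 0.37 to 1.51, adjusted p = 0.0249 from limma), and 16 of 23 alternatives kept the call. It ended without control library 1 (adjusted p = 0.0625) or 3 (0.0859), or combination library 1 (0.105) or 3 (0.0909). The rise was 1.24 (adjusted p = 0.00224) without both second libraries and 0.44 (0.0629) after the GC correction. Against control, disulfiram alone gave 0.51 ± 0.26 (adjusted p = 0.230), or 0.68 (0.0488) without both second libraries, and thalidomide gave -0.03 ± 0.26 (adjusted p = 0.997).

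SLC39A6 (ZIP6, ENSG00000141424, hg38 chr18:36108532-36129385, minus strand) is the close relative of SLC39A10 in the LIV-1 group, with which its protein forms a heteromer. Its control libraries stood at 11.6, 13.7 and 11.5 TPM and its combination libraries at 20.3, 14.3 and 19.8, without overlap. Disulfiram libraries spread from 9.28 (the second) to 17.9 TPM (the first), on both sides of control, and thalidomide libraries, at 9.89, 9.80 and 10.5 TPM, lay below every control library. The combination differed from control by 0.52 ± 0.20, with an adjusted p of 0.0696 that missed the threshold. It was 0.67 (adjusted p = 0.00608) without both second libraries and 0.13 (0.467) after the GC correction.

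SLC39A1 (ENSG00000143570, hg38 chr1:153959099-153968184, minus strand) was the sole gene of the 10 with every disulfiram library above every control library. Control libraries stood at 114, 102 and 108 TPM, disulfiram libraries at 116, 133 and 125, thalidomide libraries at 109, 103 and 108, and combination libraries at 110, 122 and 110. The disulfiram difference of 0.21 ± 0.08 (95% interval 0.04 to 0.38) had an adjusted p of 0.103. It was 0.16 (adjusted p = 0.169) without both second libraries and 0.12 (0.202) after the GC correction. With the combination it was 0.08 ± 0.08 (adjusted p = 0.467), and 0.03 and 0.06 under those 2 alternatives. AL358472.7 is annotated over 9034 bases of the same strand of this gene and CREB3L4 over 651 bases of the other strand (at most 1.03 and 12.6 TPM), so the division of reads between them is uncertain.

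SLC39A14 (ENSG00000104635, hg38 chr8:22367249-22434129, plus strand) stayed between 79.7 and 108.9 TPM in all 12 libraries. Its means were 98.4 ± 5.06 in control, 102.8 ± 1.67 with disulfiram, 87.9 ± 10.2 with thalidomide and 104.8 ± 4.70 with the combination. Differences from control were 0.06 ± 0.09, -0.17 ± 0.09 and 0.09 ± 0.09, with adjusted p of 0.680, 0.897 and 0.434. Without both second libraries the disulfiram and combination differences were 0.05 and 0.13, and after the GC correction -0.014 and -0.083, none past the threshold. SLC39A4 (ENSG00000147804, hg38 chr8:144409742-144416895, minus strand) was near the floor of the filter, with control libraries at 0.90, 1.78 and 0.96 TPM. Its disulfiram libraries, at 1.05, 2.98 and 0.51 TPM, covered the whole control range, and its combination libraries, at 0.76, 0.46 and 0.50, lay below it. The combination difference of -0.48 ± 0.32 had an adjusted p of 0.279, and it was -0.42 (adjusted p = 0.249) without both second libraries and -0.51 (0.274) after the GC correction. The disulfiram difference of 0.08 ± 0.32 (adjusted p = 0.902) was -0.31 (0.460) without both second libraries. On the opposite strand of SLC39A4, AC233992.3 is annotated over 235 bases and reached 3.12 TPM, against at most 2.98 TPM for SLC39A4. The division of reads between them is therefore uncertain.

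Among genes of the secretory pathway, SLC39A7 (ENSG00000112473, hg38 chr6:33200445-33204439, plus strand) had lower values with disulfiram and the combination that missed the threshold. Control libraries stood at 194, 163 and 162 TPM, disulfiram libraries at 145, 170 and 151, thalidomide libraries at 173, 181 and 176, and combination libraries at 147, 159 and 148. Combination libraries lay below all controls, and the second disulfiram library lay above 2 of them. The differences from control were -0.15 ± 0.09 (adjusted p = 0.284) and -0.19 ± 0.09 (adjusted p = 0.119). After the GC correction they were -0.24 (adjusted p = 0.0425) and -0.22 (0.0495), both past the threshold, and with the replicate block added to that correction neither was (0.0635 and 0.0713). Without both second libraries they were -0.22 (0.108) and -0.22 (0.0629). RXRB is annotated over 244 bases of the opposite strand and reached 22.2 TPM.

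SLC30A5, SLC30A6 and SLC30A7 encode the exporters that load zinc into the early secretory pathway, ZnT5 with ZnT6 as a heterodimer and ZnT7 on its own. For SLC30A5 (ENSG00000145740, hg38 chr5:69093646-69131069, plus strand), control libraries stood at 21.8, 18.6 and 19.7 TPM, disulfiram libraries at 24.7, 17.0 and 26.1, thalidomide libraries at 14.1, 16.1 and 18.9, and combination libraries at 31.7, 20.2 and 25.2. Combination and control libraries overlapped, through the second combination library. For SLC30A6 (ENSG00000152683, hg38 chr2:32165841-32224379, plus strand) they stood at 5.38, 5.51 and 5.09 in control, 7.60, 4.66 and 7.36 with disulfiram, 4.66, 5.91 and 5.46 with thalidomide, and 8.96, 6.41 and 7.85 with the combination. For SLC30A7 (ENSG00000162695, hg38 chr1:100896076-100981753, plus strand) they stood at 3.79, 4.83 and 4.37 in control, 5.71, 3.65 and 5.05 with disulfiram, 3.33, 3.34 and 4.16 with thalidomide, and 6.69, 5.21 and 6.47 with the combination. The combination libraries of SLC30A6 and SLC30A7 lay above every control library, whereas in both genes the second disulfiram library lay below every control library and the other 2 above.

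The differences of these exporters between combination and control were 0.32 ± 0.18 for SLC30A5, 0.46 ± 0.17 for SLC30A6 and 0.42 ± 0.16 for SLC30A7, with adjusted p of 0.200, 0.0699 and 0.0760 from limma. Without both second libraries they were 0.48, 0.57 and 0.51, with adjusted p of 0.0242, 0.00676 and 0.0175. After the GC correction they were -0.12, -0.043 and -0.10, with adjusted p of 0.399, 0.769 and 0.518. Disulfiram alone differed from control by 0.15 ± 0.18, 0.23 ± 0.17 and 0.11 ± 0.16, none past the threshold (adjusted p = 0.658, 0.428 and 0.711).

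**Figure D3:**
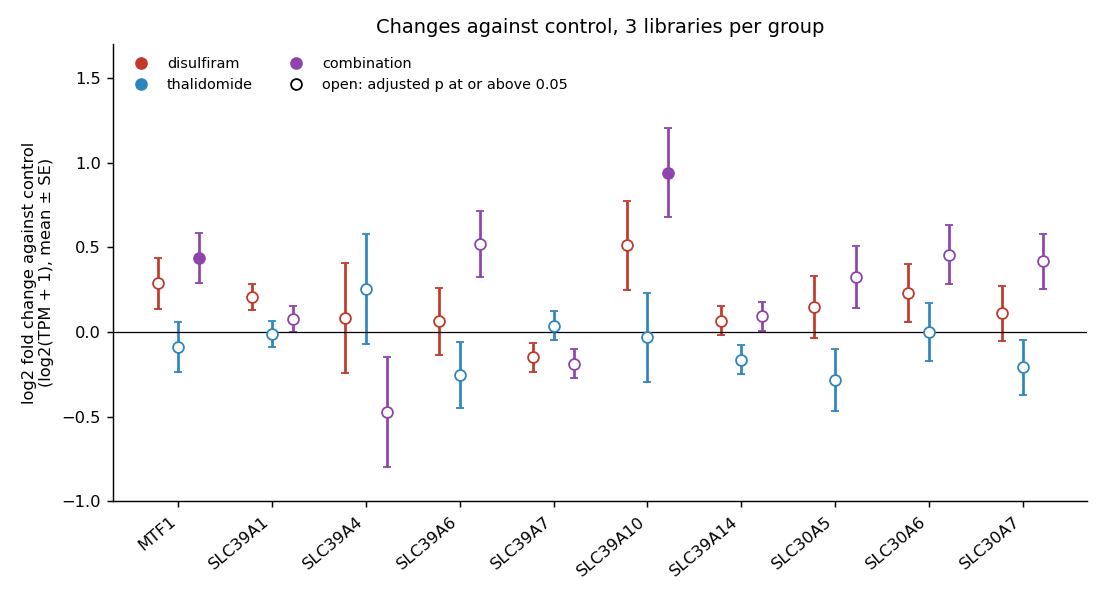
Difference from control in log2(TPM + 1) on the y axis for each gene on the x axis, with the standard error as bars, 3 libraries per group and filled points for an adjusted p below 0.05. Filled points are MTF1 at 0.44 and SLC39A10 at 0.94, both with the combination.

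Counted over the 10 genes, limma called none with disulfiram, where 13.2% of all genes tested passed the threshold, 8.73% higher and 4.52% lower. At an unadjusted p below 0.05, 1 of the 10 (SLC39A1) passed, against 27.9% of all genes. Their differences ran from -0.15 to 0.51 with a median of 0.13, beside a median of 0.09 over all genes tested, and 9 of 10 were above 0. The members' median was 0.27 without both second libraries and 0.03 after the GC correction, where the medians of all genes were 0.15 and 0.0048. Without both second libraries 2 of 10 were called, SLC39A10 and SLC30A6 as higher (16.5% of all genes), and after the GC correction 1 was, SLC39A7 as lower (19.4%). The libraries of 1 of 10 genes lay wholly above control, against 21.5% of all genes, and of none wholly below, against 11.4%.

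With thalidomide none of the 10 passed, as was the case for 0.00% of all genes, and none passed at an unadjusted p below 0.05, against 5.69% of all genes. Differences ran from -0.28 ± 0.18 for SLC30A5 (adjusted p = 0.956) to 0.26 ± 0.32 for SLC39A4 (adjusted p = 0.987), with a median of -0.06 beside -0.03 over all genes. SLC39A6 was the sole gene without overlap, with its libraries below control, which 6.32% of all genes also showed, while 3.91% lay wholly above. Its difference was -0.25 ± 0.20 with an adjusted p of 0.971.

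With the combination 2 of 10 rose (MTF1 and SLC39A10) and none fell, against 25.1% of all genes called, 18.4% higher and 6.70% lower. The median difference was 0.37, beside 0.20 over all genes. It turned to -0.063 after the GC correction (all genes 0.0076), was 0.19 with median-of-ratios scaling (0.03) and 0.13 with quantile normalization (-0.00011), and 0.50 without both second libraries (0.22). The libraries of 5 genes (MTF1, SLC39A6, SLC39A10, SLC30A6 and SLC30A7) lay wholly above control, as they did for 33.9% of all genes, and those of SLC39A4 and SLC39A7 wholly below, as for 12.1%. At an unadjusted p below 0.05 the same 5 genes passed, against 42.0% of all genes. The 2 calls in 10 are near the share of all genes called. The count of called genes was 6 of 10, all higher, without both second libraries, where 38.1% of all genes were called, and 1 of 10, SLC39A7 as lower, after the GC correction, where 22.5% were. All 3 drug groups were compared with the same control libraries, so their values are not independent.

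The combination was also compared with each drug alone. Against thalidomide 6 of 10 genes were higher and none lower, beside 32.2% of all genes called, 25.0% higher and 7.24% lower. SLC39A10 was higher by 0.97 ± 0.26 (adjusted p = 0.0181), SLC39A6 by 0.77 ± 0.20 (0.0137), SLC30A7 by 0.63 ± 0.16 (0.0152), SLC30A5 by 0.61 ± 0.18 (0.0279), MTF1 by 0.53 ± 0.15 (0.0213) and SLC39A14 by 0.26 ± 0.09 (0.0395). None of the 10 genes overlapped between these groups, 8 being higher with the combination and SLC39A4 and SLC39A7 lower, where 33.9% and 10.8% of all genes were so placed. The median was 0.49, beside 0.22 over all genes, and it was 0.06 after the GC correction (all genes 0.0029), 0.30 with median-of-ratios scaling (0.02) and 0.21 with quantile normalization (-0.0026). Without both second libraries 8 of 10 were called, 7 higher and SLC39A7 lower, beside 42.1% of all genes. After the GC correction (24.5% of all genes called) none of the 6 passed, with differences of 0.40, 0.33, 0.04, 0.10, 0.28 and 0.04 in the same order and adjusted p from 0.0680 to 0.828. SLC39A7 then fell, with a difference of -0.26 and an adjusted p of 0.0227. Leaving out combination library 1 or 3 left 0 of 10 called (14.8% and 14.2% of all genes), leaving out thalidomide library 1 left 1 (15.7%), and leaving out disulfiram library 2, which shares the estimate of the spread, gave 9 (35.4%).

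Against disulfiram alone the combination showed no called gene among the 10, as in all but 0.00651% of genes, and 1 (SLC39A6) at an unadjusted p below 0.05, against 17.1% of all genes. SLC39A6 differed by 0.46 ± 0.20 (adjusted p = 0.277) and SLC39A4 by -0.56 ± 0.32 (0.365), the ends of the range. The median was 0.16 beside 0.06 over all genes, and it turned to -0.064 after the GC correction (all genes -0.0065) and was 0.03 without disulfiram library 2 (0.04), 0.28 without combination library 2 (0.07) and 0.04 with quantile normalization (-0.03). All 10 genes overlapped between the 2 groups, whereas 9.69% of all genes lay wholly higher and 6.54% wholly lower. Between disulfiram and thalidomide none was called by limma, against 17.1% of all genes (11.9% higher and 5.20% lower), and 4 of 10 passed an unadjusted p of 0.05, against 31.0% of all genes. These were MTF1 (0.37 ± 0.15, adjusted p = 0.107), SLC39A1 (0.22 ± 0.08, 0.0742), SLC39A14 (0.23 ± 0.09, 0.0874) and SLC30A5 (0.43 ± 0.18, 0.134). MTF1, SLC39A1 and SLC39A14 lay wholly higher with disulfiram, as did 22.1% of all genes, and SLC39A7 wholly lower, as did 9.90%.

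The interaction term asks whether the combination differs from the sum of the single-drug differences on the log2 scale. None of the 10 passed in limma, and 0.00% of all genes did. At an unadjusted p below 0.05, 2 of 10 passed, SLC39A6 at 0.71 ± 0.28 and SLC30A7 at 0.52 ± 0.23 (both with an adjusted p of 0.466), against 10.3% of all genes. SLC39A4 was lowest at -0.81 ± 0.46 (adjusted p = 0.476). After the GC correction SLC39A6 stood at 0.35 and SLC30A7 at 0.03, the lowest values among their alternatives. Over all tested genes the interaction term had a Spearman correlation of -0.62 with GC content.

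The place of the second libraries among their groups is given for the 10 genes on either side of a GC content of 45%, a split chosen after the values were seen. For the 5 genes under it (SLC39A6, SLC39A10, SLC30A5, SLC30A6 and SLC30A7), the second library was the lowest of its group in 5 of 5 cases in disulfiram and 5 of 5 in the combination. It lay below the mean of the other 2 by log2 differences of -0.63 (SLC39A6) to -0.45 (SLC30A7) in disulfiram and of -0.89 (SLC39A10) to -0.29 (SLC30A7) in the combination, where the medians over all genes were -0.10 and -0.06. For the 5 genes at or above 45% (MTF1, SLC39A1, SLC39A4, SLC39A7 and SLC39A14), the second disulfiram library was highest for 4 and lowest for MTF1. In the combination it was highest for 2 (SLC39A1 and SLC39A7) and lowest for 3 (MTF1, SLC39A4 and SLC39A14). The combination difference from control had a median of 0.46 in the first 5 genes, all above 0, and of 0.08 in the other 5. Over all tested genes the Spearman correlation of the difference with GC content was -0.44 for the combination against control, 0.00 for disulfiram against control and 0.20 for thalidomide against control.

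**Figure D4:**
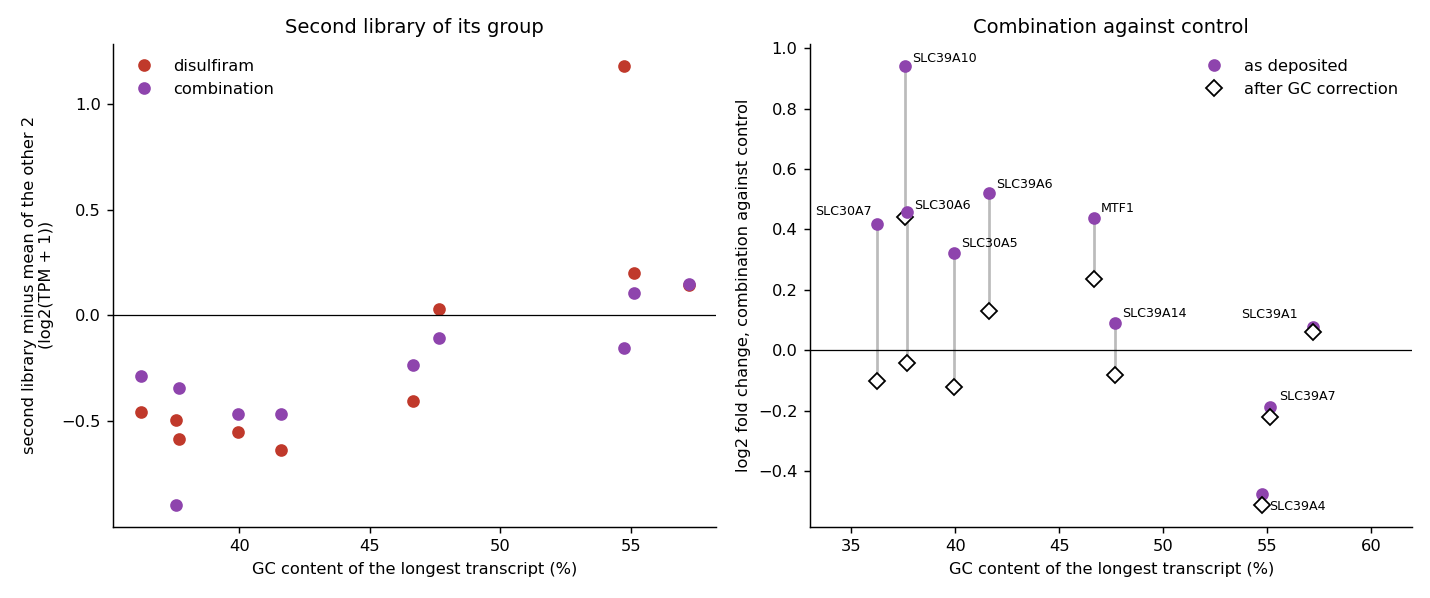
Left, log2(TPM + 1) of the second library minus the mean of the other 2 in disulfiram and the combination, and right, the log2 difference of combination from control as deposited and after the GC correction, both against the GC content (%) of each gene's longest transcript. Under 45% all second libraries lie below 0, and the correction takes SLC39A10 from 0.94 to 0.44 and SLC30A7 from 0.42 to -0.10.

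Of the other 15 zinc transporter genes, 10 were tested. With disulfiram 1 rose and none fell, with thalidomide none passed, and with the combination none rose and 2 fell, and their median differences were -0.0002, -0.0028 and 0.05. Of all genes tested, 8.73% rose and 4.52% fell with disulfiram, 0.00% passed with thalidomide, and 18.4% rose and 6.70% fell with the combination. SLC39A13 (ZIP13, a transporter of vesicles and Golgi) rose with disulfiram from 19.6 ± 2.12 to 27.8 ± 1.07 TPM (0.49 ± 0.13, adjusted p = 0.0314), and 15 of 23 alternatives kept it. Leaving out control library 1 or 3 or any disulfiram library ended that call, with adjusted p from 0.0649 to 0.116. SLC39A5 (ZIP5, a basolateral importer) fell with the combination from 41.4 ± 9.40 to 22.6 ± 3.29 TPM, a difference of -0.83 ± 0.18 (adjusted p = 0.00925) that all 23 alternatives kept. SLC39A11 (ZIP11) fell from 14.1 ± 0.606 to 10.2 ± 0.971 TPM, a difference of -0.43 ± 0.12 (adjusted p = 0.0249) kept by 18 of 23. It ended when any control library or combination library 1 or 3 was left out (adjusted p from 0.0542 to 0.104). With disulfiram alone, limma gave -0.45 ± 0.18 for SLC39A5 (adjusted p = 0.128) and -0.37 ± 0.12 for SLC39A11 (0.0639). The combination differed from disulfiram by -0.38 ± 0.18 (0.299) and -0.06 ± 0.12 (0.800) in these genes, so the calls do not set the combination apart from disulfiram. SLC30A1 stood at 5.24 ± 1.28, 8.19 ± 2.54, 4.56 ± 1.19 and 9.43 ± 2.72 TPM in control, disulfiram, thalidomide and the combination, with adjusted p of 0.193 for disulfiram and 0.0577 for the combination against control from limma. Its GC content is 38.0%, and the second library was the lowest of its group in disulfiram (5.92 TPM) and in the combination (6.30 TPM). Values of SLC30A1 without those libraries or after the GC correction are not given here.

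Among the metallothioneins, the best-known MTF1 targets, 9 of 11 listed were tested, and 7 rose with disulfiram, 7 with the combination and none with thalidomide, with medians of 1.74, 1.81 and -0.19. The shares of all genes tested were 8.73% higher and 4.52% lower with disulfiram, 18.4% and 6.70% with the combination, and 0.00% with thalidomide. MT1M rose by 5.34 ± 0.31 with disulfiram (adjusted p = 2.1e-06) and 4.97 ± 0.31 with the combination (4.74e-06), MT1G by 4.14 ± 0.26 (4.38e-06) and 3.73 ± 0.26 (1.42e-05), all kept in 23 of 23 alternatives, though metallothionein genes are close paralogs and could share reads. MT1B was listed at 0 in all 3 control libraries and at 155, 182 and 134 TPM with disulfiram and 194, 143 and 171 TPM with the combination. MT1X, whose stretch is printed above, was called by limma in neither group. Its differences were 0.39 ± 0.22 with disulfiram (adjusted p = 0.290) and 0.11 ± 0.22 with the combination (0.717). Of 6 other MTF1 targets and partners, 1 rose and 1 fell with disulfiram and 2 rose and 1 fell with the combination, the fall being that of HAMP, the gene of the iron hormone hepcidin, with differences of -2.42 ± 0.43 (adjusted p = 0.00396) and -2.37 ± 0.43 (0.00409). Of 8 listed genes for zinc-binding proteins of the secretory pathway, 4 were tested (ERP44, ENPP1, PIGO and PIGG) and none passed against control in any drug group.

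**Figure D5:**
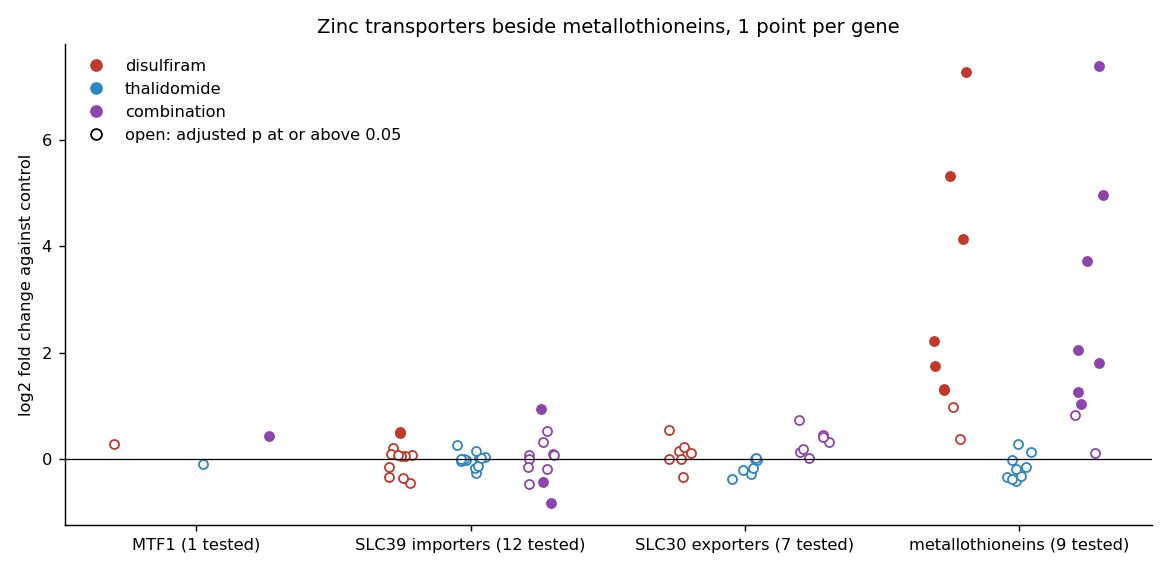
Log2 difference from control on the y axis for MTF1, the 12 tested SLC39 importers, the 7 tested SLC30 exporters and the 9 tested metallothioneins, 1 point per gene and drug group, with open points for an adjusted p at or above 0.05. No transporter exceeds 0.94, while metallothionein medians are 1.74 with disulfiram and 1.81 with the combination.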

How the data were processed

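RNA sequencing of 12 libraries was used in the form of the deposited table of TPM per gene, computed by the authors. Per the submitters' processing notes the tools were HISAT2 2.0 and StringTie 1.3.0 and the build was hg38. Annotation, filters, strand and depth were not given in the sources used here. GENCODE 29 named 58611 of 58884 Ensembl identifiers among 59191 features, and 307 assembled loci had none. From the deposited TPM, log2(TPM + 1) was fitted with limma 3.58.1 (R 4.3.3) with a mean-variance trend, over all 12 libraries without a replicate term, for genes with a TPM of at least 1 in at least 3 libraries. Tests were two-sided, with Benjamini-Hochberg adjustment over all genes tested and a threshold of 0.05. Named were all 10 genes, other zinc transporters past the threshold against control, up to 4 MTF1 targets with the largest change, and the 3 genes most like MTF1. Members, lists and the alternative without 2 libraries were chosen with earlier results of these data known. Other scalings, filters, pseudocount, weights, a block, a GC correction and leaving out libraries were tried. The fit was tested on simulated data with independent noise for each gene and library. That simulation held no trend on GC content, so it does not cover such shifts. GC content is that of the longest GENCODE transcript of each gene.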

Additional observations from a re-analysis of the deposited data

How the results depend on the processing

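Precision is limited by 3 libraries per group, and depth is unknown. Scaling matters because the median of all genes stood at 0.20 in the combination against control and at 0.03 with median-of-ratios scaling. That scaling changed the split of calls over all genes from 2823 higher and 1029 lower to 1351 and 1877 there, from 1340 and 694 to 768 and 969 in disulfiram against control, from 3834 and 1112 to 1811 and 2254 in the combination against thalidomide, and from 1826 and 798 to 1030 and 1240 in disulfiram against thalidomide. The causes of the changes below were not tested, and the share of all genes called under the same setting stands in parentheses. Of the 10 genes, 0 were called in thalidomide against control and in the interaction under every alternative run (the interaction was not refitted on only the groups compared). Disulfiram against control went from 0 to 2 with array weights (25.3%), 1 with the GC correction (19.4%) and 2 without both second libraries (16.5%). The combination against control went from 2 (25.1%) to 1 with quantile normalization (19.6%), 0 with no filter (8.07%), 1 of 7 tested at a mean TPM of at least 5 (30.1%), 7 with array weights (53.2%), 1 with the GC correction (22.5%) and 6 without both second libraries (38.1%), and ran from 0 to 5 on leaving out single libraries. The 0 came without control library 1 (12.9%) or 3 (13.6%) or combination library 1 (10.8%) or 3 (9.29%), and the 5 without disulfiram library 2 (29.4%) or combination library 2 (33.1%). Against thalidomide the combination went from 6 (32.2%) to 2 with quantile normalization (24.1%), 3 with no filter (10.5%), 1 with the GC correction (24.5%), and 0 to 9 on leaving out single libraries (14.2% to 38.1%). Array weights gave 1 for the combination against disulfiram (18.9%). Disulfiram against thalidomide went from 0 (17.1%) to 2 with array weights (23.6%), 1 with the GC correction (22.3%), 6 without both second libraries (23.2%) and 0 to 2 on leaving out single libraries (10.4% to 18.3%).

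The sign changes listed here were past the threshold neither before nor after. With disulfiram, SLC39A4 (0.08) became -0.073 with quantile normalization, -0.33 with array weights, -0.0013 with the GC correction, -0.31 without both second libraries and -0.31 to 0.39 on leaving out single libraries. SLC39A6 (0.06) became -0.038 under median-of-ratios scaling, -0.035 under quantile normalization, -0.025 with the GC correction and -0.16 to 0.27 on leaving out single libraries. SLC39A14 (0.06) became -0.041 and -0.014 with median-of-ratios scaling and the GC correction, and SLC30A7 (0.11) became -0.034 with quantile normalization and -0.0024 to 0.26 on leaving out single libraries. With the combination, median-of-ratios scaling gave -0.12 for SLC39A1 and -0.11 for SLC39A14, and the GC correction gave -0.083 for SLC39A14, -0.12 for SLC30A5, -0.043 for SLC30A6 and -0.10 for SLC30A7. Against thalidomide the GC correction gave -0.11 for SLC30A6. With thalidomide against control it turned SLC39A10 from -0.03 to 0.036 and SLC30A6 from -0.00054 to 0.066.

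Same-numbered libraries of disulfiram and the combination deviated alike for number 2 (r = 0.37) and number 1 (0.21) but not for number 3 (0.03). Of all 18 same-numbered pairs 4 had a correlation over 0.1 (range -0.15 to 0.37), and 6 of 12 libraries correlated best with their own number, so the numbers were not taken to pair the samples. The replicate block left 1 of 10 genes called in the combination against control (23.3%), SLC39A10 (adjusted p = 0.0391), and not MTF1 (0.0598). The GC correction with the block left 0 there (20.7%) and 0 in disulfiram against control (17.7%). It left 1 in the combination against thalidomide (22.5%) and 1 in disulfiram against thalidomide (20.9%). The sign changes under the GC correction had the same values with the block.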
